A study of Rattus norvegicus with 24 samples.

Results

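Procollagen chains are modified and folded in the endoplasmic reticulum before they leave the cell, and the genes described here encode the enzymes and the chaperone of that step. P4ha1, P4ha2 and P4ha3 encode the catalytic alpha subunits of collagen prolyl 4-hydroxylase, and P4hb encodes its beta subunit, protein disulfide isomerase. Plod1, Plod2 and Plod3 encode lysyl hydroxylases, and Serpinh1 encodes HSP47, the chaperone that binds procollagen. The 8 genes were taken as a fixed set, chosen when earlier results of these data were known. Each was read from the probe sets to which the array's annotation gives its symbol alone, the one with the highest mean over all arrays where there were several. Of the 8 genes, 7 could be measured in this way, out of 18166 named genes on the array, each by a single probe set. The only probe set of Plod3 also carries the symbol Mir702, so no value is given for Plod3.

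Prolyl 4-hydroxylase turns proline residues of the chains into hydroxyproline, which keeps the collagen helix stable at body temperature. Its alpha subunits hold the active site and need iron, oxygen, ascorbate and 2-oxoglutarate, while the beta subunit keeps them soluble in the endoplasmic reticulum. Lysyl hydroxylases prepare lysine residues for glycosylation and for the cross-links that give bone collagen its strength, and HSP47 stays with the folded procollagen until it reaches the Golgi. In bone, osteoblasts and fibroblasts that lay down matrix use all of these proteins.

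The samples were peri-implant bone of the tibia from male Sprague Dawley rats, collected with a trephine around implants of poly(lactide-co-glycolide) (PLGA). The Li+ implants held lithium carbonate and the Ctrl implants, which were made of the same polymer, held sodium carbonate. Rats 4, 5, 7, 10, 11 and 15 were killed at day 7 and rats 21, 23, 27, 28, 29 and 30 at day 28. Each of the 12 rats gave 1 Ctrl and 1 Li+ sample, and each sample had an Affymetrix Rat Gene 2.0 ST array of its own, so that there were 24 arrays, 6 for each implant and day. The age of the rats and a group without implant were not given in the sources used here. The study asked how released lithium affects healing around the implant, and its design implies a comparison of Li+ with Ctrl within rats and of day 28 with day 7 between rats. All values are log2 signals after normalization across arrays, on which a difference of 1 is a 2-fold difference. Signals of different probe sets are not on a common scale, so levels were not compared between genes.

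Facts of the whole series bear on the results as follows. The arrays of a group correlated with each other at a mean r of 0.979 to 0.991 per array. The mean log2 signal of 8 osteoblast markers lay between 10.47 and 11.89 on all arrays. Skeletal muscle markers set 3 arrays of day 28 apart. The mean log2 signal of the 8 muscle genes that could be measured was 12.3 on the Ctrl array of rat 23, 12 on the Li+ array of rat 27 and 10.4 on the Ctrl array of rat 29, and 6.73 to 8.26 on the other arrays. Changes over rat means are therefore also given without rats 23, 27 and 29, which leaves 3 rats at day 28, and the time courses of single implants without these arrays.

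The windows from 250 bases before to 50 bases after the transcript start are shown for the 4 genes in which a search found a motif of interest. In cultured human cells P4HA1, P4HA2 and PLOD2 are known targets of hypoxia-inducible factor, and SERPINH1 is a known target of heat shock factor. The motifs searched were ACGTG, the core of the hypoxia response element, and TTCNNGAA, a core of the heat shock element, on both strands, and no match of the first was part of CACGTG. Capitals mark the matches, and ACGTG on the other strand reads CACGT. The sequences come from RefSeq on GRCr8 and are written along the strand of the gene. They lie at chr20:27844796-27845095 (+) for P4ha1, chr10:38743644-38743943 (+) for P4ha2, chr8:101964068-101964367 (+) for Plod2 and chr1:163062927-163063226 (-) for Serpinh1.
P4ha1: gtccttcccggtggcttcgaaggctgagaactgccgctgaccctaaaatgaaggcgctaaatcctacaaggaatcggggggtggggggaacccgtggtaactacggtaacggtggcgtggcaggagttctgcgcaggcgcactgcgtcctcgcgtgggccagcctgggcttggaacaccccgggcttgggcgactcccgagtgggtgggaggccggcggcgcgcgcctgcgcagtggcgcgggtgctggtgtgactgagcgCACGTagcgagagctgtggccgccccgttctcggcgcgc
P4ha2: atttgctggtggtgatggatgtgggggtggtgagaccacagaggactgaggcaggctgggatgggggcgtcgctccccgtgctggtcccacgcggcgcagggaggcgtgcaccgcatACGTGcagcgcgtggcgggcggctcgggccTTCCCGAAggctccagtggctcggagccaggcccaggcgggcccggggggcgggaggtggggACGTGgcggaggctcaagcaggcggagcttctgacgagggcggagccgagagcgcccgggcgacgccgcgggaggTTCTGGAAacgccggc
Plod2: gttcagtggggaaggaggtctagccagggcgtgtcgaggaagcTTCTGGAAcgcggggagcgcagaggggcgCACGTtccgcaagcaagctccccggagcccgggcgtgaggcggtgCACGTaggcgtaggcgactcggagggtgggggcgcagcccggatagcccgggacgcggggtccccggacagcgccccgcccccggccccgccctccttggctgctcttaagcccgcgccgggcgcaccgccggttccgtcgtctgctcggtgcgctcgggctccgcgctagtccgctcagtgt
Serpinh1: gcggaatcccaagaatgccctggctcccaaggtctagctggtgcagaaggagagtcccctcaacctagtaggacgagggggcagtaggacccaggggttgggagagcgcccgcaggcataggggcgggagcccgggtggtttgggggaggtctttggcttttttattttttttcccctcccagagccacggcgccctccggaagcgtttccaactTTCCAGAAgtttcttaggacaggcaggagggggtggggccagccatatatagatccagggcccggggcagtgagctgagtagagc

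All 8 genes had a window in RefSeq. ACGTG was present in 3 of them. It lay 12 bases after the start in P4ha1, 133 and 41 bases before it in P4ha2, and 178 and 133 bases before it in Plod2. Of 33469 rat windows of the same length 19.3% held this motif, and of the 8007 windows with a GC content of at least 60.7%, the lowest among the 8 genes, 25.7% held it. TTCNNGAA was present in 3 windows as well, 103 bases before and 35 bases after the start in P4ha2, 207 bases before it in Plod2 and 35 bases before it in Serpinh1, against 8.77% of all windows and 4.2% of the GC-rich ones. The windows of P4ha3, P4hb, Plod1 and Plod3 held neither run of letters. A match describes the sequence and is not evidence of a bound site.

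The over-time analysis showed lower signals at day 28 for every measured gene. When the 2 sites of each rat were averaged, the log2 fold change was between -0.87 and -0.20, which corresponds to 1.82-fold to 1.15-fold lower signals. The median over the 7 genes was -0.63, against 0.01 for all named genes. At an unadjusted p under 0.05, 7 of 7 genes were lower at day 28, against 11.8% of named genes, and 5 of 7 were also at least 1.5-fold lower, against 1.24%. After Benjamini-Hochberg adjustment over all 36495 probe sets, 1 of 7 remained, P4ha3, against 0.991% of named genes. Lower signals of collagen synthesis genes at day 28 were known when the set was chosen, so these counts are no independent test. In bulk bone, fewer cells of a type and less RNA in each cell cannot be told apart.

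**Figure D1:**
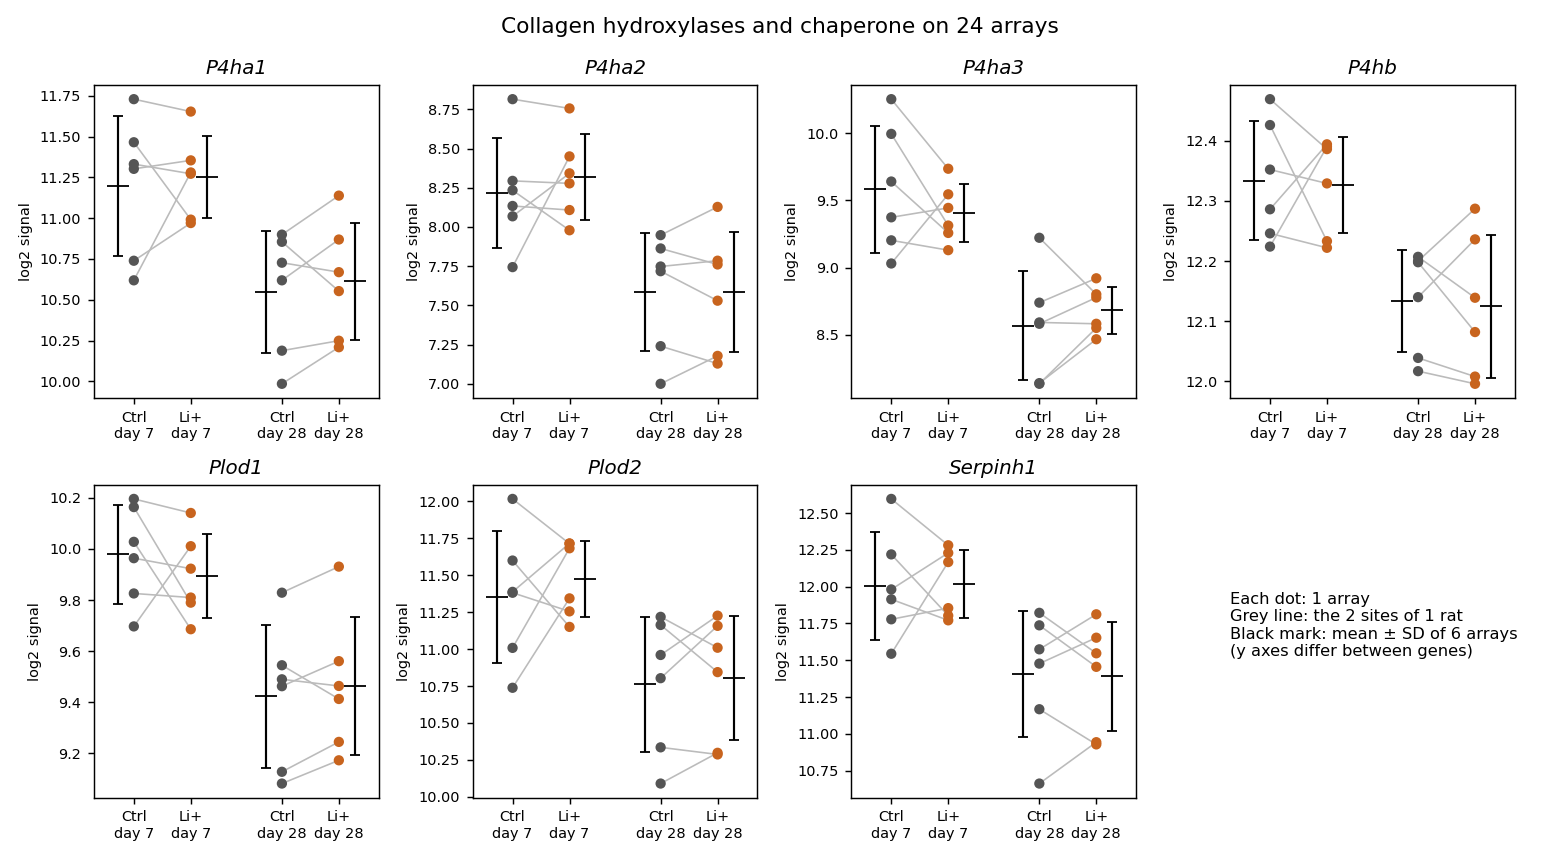
Log2 signal of the 7 measured genes (y axes, which differ between genes) on 24 arrays, by implant and day (x axis), with grey lines joining the 2 sites of a rat and black marks for the mean ± SD of 6 arrays. Day 28 lies lower in each gene, with means of P4ha3 at 9.58 and 8.57 in Ctrl and at 9.40 and 8.68 in Li+, while the ranges of Ctrl and Li+ overlap within each day.

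Among the alpha subunits, P4ha3 had the largest decrease of the 7 genes over rat means. In Ctrl its log2 signal ranged from 9.03 to 10.25 at day 7 with a median of 9.51, and from 8.14 to 9.22 at day 28 with a median of 8.59. In Li+ it ranged from 9.13 to 9.74 at day 7 (median 9.38) and from 8.47 to 8.92 at day 28 (median 8.68). The days did not overlap in Li+, whereas in Ctrl the array of rat 28 exceeded the 2 lowest arrays of day 7. The log2 fold change was -1.01 (SE 0.227) in Ctrl with an adjusted p of 0.111, and -0.72 (SE 0.107) in Li+ with an adjusted p of 0.0352. Over rat means it was -0.87 (SE 0.148) with an adjusted p of 0.025, and the highest rat mean of day 28, 9.01, lay below the lowest of day 7, 9.17. An exact permutation test of 6 rats against 6 gave the smallest p it can give, 0.00216, in Li+ and over rat means, and 0.00649 in Ctrl.

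P4ha1, the alpha subunit most widely used across tissues, showed the same direction at both implants. In Ctrl its log2 signal was 10.62 to 11.73 at day 7 (median 11.32) and 9.98 to 10.90 at day 28 (median 10.67). With Li+ the range was 10.97 to 11.65 at day 7 (median 11.28) and 10.21 to 11.14 at day 28 (median 10.61). The days overlapped at both implants, and over rat means 5 of 6 rats of day 28 lay below every rat of day 7, the exception being rat 28. Over rat means P4ha1 had a log2 fold change of -0.65 (SE 0.168) with an adjusted p of 0.0805 and an exact permutation p of 0.00649.

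P4ha2 encodes an alpha subunit that is found in osteoblasts and chondrocytes. In Ctrl its log2 signal was 7.74 to 8.81 at day 7 (median 8.18) and 7.00 to 7.95 at day 28 (median 7.73). In Li+ it was 7.98 to 8.76 at day 7 (median 8.31) and 7.13 to 8.13 at day 28 (median 7.65). Single arrays of the days overlapped, but rat means did not, by a margin of 8.10 for the lowest rat of day 7 to 8.04 for the highest of day 28. For P4ha2 over rat means this gave a log2 fold change of -0.68 (SE 0.167), with an adjusted p of 0.0662 and an exact permutation p of 0.00216.

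P4hb, the beta subunit, also serves as a general disulfide isomerase for secreted proteins. In Ctrl its log2 signal was 12.22 to 12.47 at day 7 (median 12.32) and 12.02 to 12.21 at day 28 (median 12.17). At Li+ sites it lay from 12.22 to 12.39 at day 7 (median 12.36) and 12 to 12.29 at day 28 (median 12.11). Its values were the least variable of the 7 genes, with SDs of 0.08 to 0.12 within groups. In Ctrl the days narrowly did not overlap, with 12.224 as the lowest value of day 7 and 12.207 as the highest of day 28. The log2 fold change over rat means, -0.20 (SE 0.0527), was the smallest in size of the 7, with an adjusted p of 0.0825 and an exact permutation p of 0.00433.

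The lysyl hydroxylases Plod1 and Plod2 act on different lysine residues, Plod1 in the helix and Plod2 in the telopeptides that form bone-type cross-links. The log2 signal of Plod1 in Ctrl was 9.70 to 10.20 at day 7 (median 10.00) and 9.08 to 9.83 at day 28 (median 9.48). Around Li+ implants it was 9.69 to 10.14 at day 7 (median 9.87) and 9.17 to 9.93 at day 28 (median 9.44). At each implant, 5 of the 6 arrays of day 28 lay below every array of day 7, and rat 28 was the exception both times. The log2 fold change of Plod1 over rat means was -0.49 (SE 0.112), with an adjusted p of 0.0564 and an exact permutation p of 0.00866.

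Plod2 varied more within the groups. In Ctrl its log2 signal was 10.74 to 12.02 at day 7 (median 11.38) and 10.09 to 11.22 at day 28 (median 10.88). In Li+ it was 11.15 to 11.72 at day 7 (median 11.51) and 10.29 to 11.23 at day 28 (median 10.93). In Ctrl 2 of the 6 arrays of day 28 lay below every array of day 7, and in Li+ 4 of 6. The log2 fold change over rat means was -0.63 (SE 0.181), with the highest adjusted p of the 7 genes, 0.102, and an exact permutation p of 0.00649.

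Serpinh1, the chaperone, was lower at day 28 by a similar amount. In Ctrl its log2 signal was 11.54 to 12.60 at day 7 (median 11.95) and 10.66 to 11.82 at day 28 (median 11.53). With Li+ it was 11.77 to 12.28 at day 7 (median 12.01) and 10.93 to 11.81 at day 28 (median 11.50). Single arrays overlapped, while the rat means of day 28, up to 11.69, all lay below those of day 7, from 11.82. Serpinh1 had a log2 fold change over rat means of -0.61 (SE 0.163), with an adjusted p of 0.0842 and an exact permutation p of 0.00216. With P4ha2 and P4ha3 this made 3 of 7 genes without overlap of rat means, all lower, against 1.84% of named genes.

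Within single implants the counts at an unadjusted p were the same, although the share of other genes differed. In Ctrl 7 of 7 genes were lower at day 28, against 8.79% of named genes, and in Li+ 7 of 7, against 10.4%. The median log2 fold change was -0.60 in Ctrl and -0.64 in Li+. At least 1.5-fold lower were 5 of 7 in Ctrl, against 1.27%, and 5 of 7 in Li+, against 1.23%. The adjusted p passed for 0 of 7 genes in Ctrl (0.143% of named genes were lower) and for 1 of 7 with Li+ (0.270%), which was P4ha3. Without overlap were 1 of 7 genes in Ctrl, P4hb, against 1.11%, and 1 of 7 in Li+, P4ha3, against 0.941%.

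The adjusted calls depended on single rats and on the fit. Over rat means P4ha3 lost its call without rat 5, 7, 11, 27 or 29 (adjusted p up to 0.0738). The same held with the test of the Methods, an unpaired t-test, here applied to rat means and adjusted (adjusted p = 0.0686). The authors used that test within implants and named no adjustment. P4ha3 also lost its call without the rats that had an array high in muscle genes (log2 fold change -0.83, adjusted p = 0.324), where 0 of 36495 probe sets passed. In Li+ it lost its call without rat 4, 7, 11, 15, 21, 27 or 29 (adjusted p up to 0.105), the Li+ array of rat 27 being the one high in muscle genes (adjusted p without it = 0.0769). With all 24 arrays and the rat as a random replicate block, 7 of 7 genes passed at an adjusted p (0.00235 to 0.0304), against 4.86% of all probe sets, but that fit used a correlation within rats of 0.25 for all probe sets, while the 2 sites of a rat correlated at 0.363 to 0.716 for these genes. Without rat 28, 4 of 7 genes passed over rat means, against 2.78% of all probe sets, and 6 of 7 in Li+, against 2.79%. Without the arrays high in muscle genes, 7 of 7 genes were lower at an unadjusted p in Ctrl (median -0.77, against 6.11% of all probe sets lower) and 7 of 7 in Li+ (median -0.56, against 6.19%). Without the rats concerned, 7 of 7 were lower over rat means, against 4.90% of all probe sets. The log2 fold changes were then -0.57 for P4ha1, -0.60 for P4ha2, -0.18 for P4hb, -0.43 for Plod1, -0.62 for Plod2 and -0.58 for Serpinh1, with adjusted p of 0.36 to 0.41.

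For each of the 7 genes, the 95% interval of the mean Li+ minus Ctrl difference within rats included 0, at each day and over both days. At day 7 the log2 fold changes of Li+ against Ctrl were between -0.18 and 0.12, with 0 of 7 genes at an unadjusted p under 0.05, against 1.90% of named genes. At day 28 they were between -0.02 and 0.11, with 0 of 7, against 2.99%. Over both days and 12 pairs they were between -0.03 and 0.08, with 0 of 7, against 3.73%, and the lowest adjusted p was 0.963. The 95% intervals over both days reached from -0.25 to 0.29 at their widest, so that a 1.5-fold difference lies outside each of them. No adjusted p passed in any of these comparisons, in which 0 named genes passed at all.

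**Figure D2:**
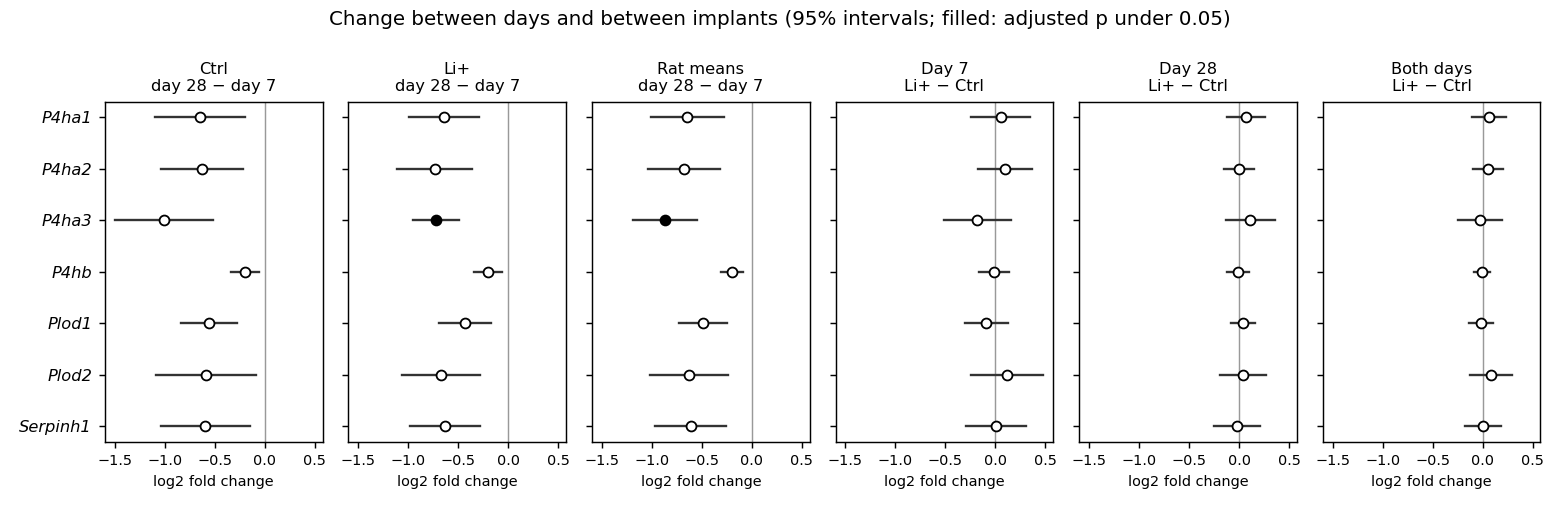
Log2 fold change (x axis) of each gene (y axis) between days, in Ctrl, in Li+ and over rat means, and between implants, at day 7, at day 28 and over both days, with 95% intervals and filled circles for an adjusted p under 0.05. The intervals between days lie below 0 for each gene (-1.19 to -0.09 at their widest over rat means), and those between implants include 0.

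P4ha3 had the largest within-rat difference in size at both days, in opposite directions. It was lower in Li+ in 4 of 6 rats at day 7, with a log2 fold change of -0.18 (95% interval -0.51 to 0.16, exact sign-flip p = 0.344), and higher in Li+ in 4 of 6 rats at day 28, at 0.11 (95% interval -0.13 to 0.36, exact p = 0.438). The smallest p that 6 pairs allow is 0.0312. The difference between the time courses, tested as an interaction, was 0.29 for P4ha3 (95% interval -0.13 to 0.71, adjusted p = 1), with an exact permutation p of 0.206. For the other genes it was between -0.11 and 0.13. In this test 0 of 7 genes passed at an unadjusted p, against 2.35% of named genes. Without rat 15 the difference of P4ha3 was 0.43 and that of Plod1 0.21, both at an unadjusted p under 0.05 (0.0248 and 0.0441) and at an adjusted p of 0.97.

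The remaining pairs gave differences close to 0. Over both days P4ha1 was higher in Li+ in 7 of 12 rats (log2 fold change 0.06, 95% interval -0.11 to 0.23) and P4ha2 in 5 of 12 (0.05, -0.10 to 0.20). P4hb was higher in 4 of 12 rats (-0.01, -0.09 to 0.07). Plod1 was higher in 5 of 12 (-0.02, -0.14 to 0.10) and Plod2 in 6 of 12 (0.08, -0.13 to 0.29). Serpinh1 was higher in 6 of 12 as well (0, -0.18 to 0.18).

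The differences between the sites of a rat ran in the same direction across genes in several rats. In rats 4 and 7 the Li+ site was lower in 7 of 7 genes, by 0.19 to 0.68 on the log2 scale in rat 7. In rats 15 and 30 it was higher in 7 of 7, by 0.17 to 0.71 in rat 15. Over the 12 rats the Li+ minus Ctrl differences of 2 genes correlated at a median r of 0.678 over the 21 pairs of genes (0.252 to 0.904). The SD of these differences was larger at day 7 (0.13 to 0.48) than at day 28 (0.09 to 0.30) in 7 of 7 genes, whereas the SD of the rat means was larger at day 28 in 6 of 7, all but P4ha3. The share of all named genes with the same directions and spreads was not counted.

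The genes also moved together between rats. Rat 4 had the highest rat mean of day 7 in 7 of 7 genes, and rat 28 the highest of day 28 in 5 of 7. Rats 21 and 27 had the 2 lowest values of day 28 in 6 of 7 genes, at the Ctrl sites and, counted separately, at the Li+ sites. P4ha3 was the gene that departed from this order, with rats 21 and 29 lowest in its rat means. How many of all named genes had the same order of rats was not counted. Averaged over the 7 genes, the rat mean lay 0.66 below the overall mean of the genes in rat 27 and 0.63 below it in rat 21, and between 0.23 below and 0.04 above it in the other rats of day 28. The same 2 rats were lowest at day 28 in the mean of 16 collagen chains, of 8 osteoblast markers and of 6 fibroblast markers, and the part of these cells in the result was not tested.

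**Figure D3:**
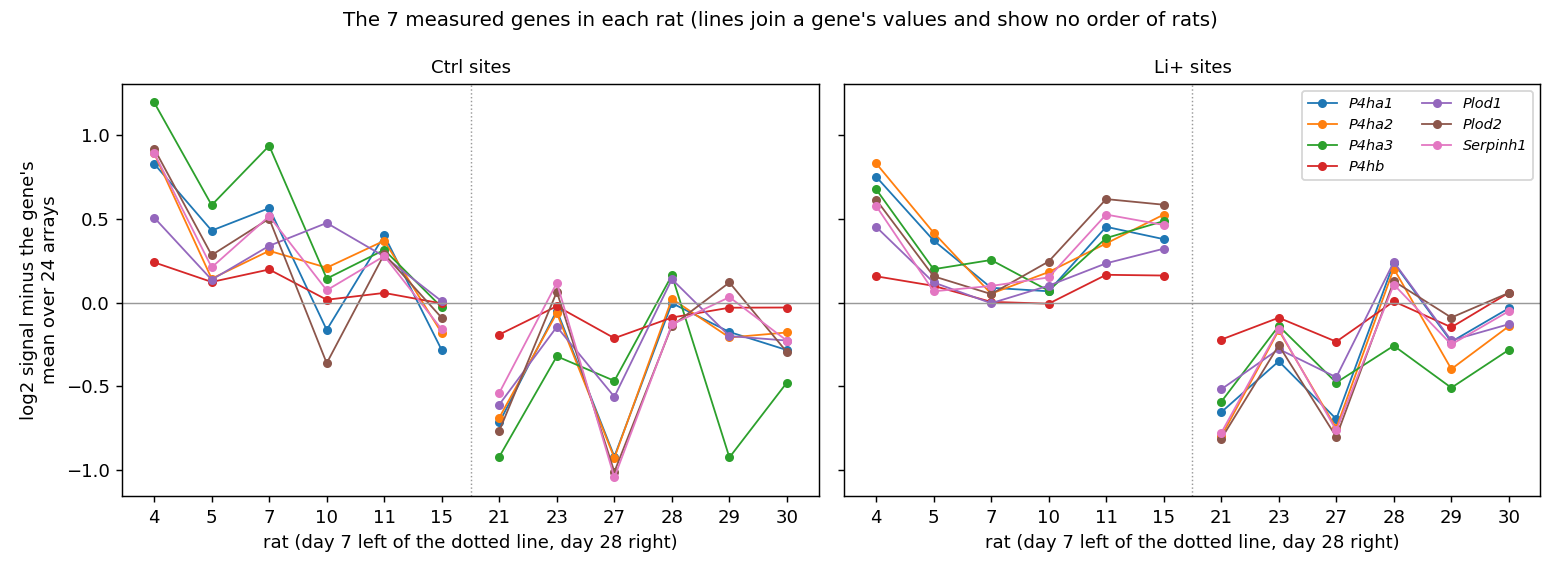
Deviation of the log2 signal from the mean of each gene over 24 arrays (y axis) by rat (x axis), with Ctrl sites left, Li+ sites right and 1 line per gene. Rats 21 and 27 lie lowest among the rats of day 28 for most genes at both sites, and P4hb stays closest to 0.

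Across the 24 arrays, pairs of the 7 genes correlated at r of 0.764 to 0.969 (median 0.917), and at 0.573 to 0.953 (median 0.835) once group means had been taken out. These values describe arrays that share rats, and genes of one RNA sample are not independent. Outside the 7 genes, those with the most similar pattern among 11117 candidates were Tmem45a (r = 0.982), Sdc2 and Fkbp9 for P4ha1, Selenom (0.969), Mras and Csf1 for P4ha2, and Ccbe1 (0.916), Clec2dl1 and Lrrc15 for P4ha3. For P4hb they were Tnfrsf10b (0.960), Selenom and Gpr180. For Plod1 they were Pvr (0.963), Cd276 and Igf2r, and for Plod2 Adam12 (0.980), Adgrd1 and Sytl2. For Serpinh1 they were Fkbp10 (0.989), Pcolce (0.986) and Rcn3 (0.986), and the same 3 genes led after group means were removed (0.980 to 0.984). When group means were removed, the highest r was 0.837 for P4ha3, with Mcam, and at least 0.922 for each of the others.

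Other genes of collagen synthesis were mostly lower at day 28 too. Of 18 measured procollagen partners 14 were lower at an unadjusted p over rat means and 0 higher, against 11.8% of named genes lower and 10.1% higher. Their median log2 fold change was -0.45. The partners are mostly further modifying enzymes, prolyl isomerases and transport factors, and the list also holds Crtap, Sparc, Tmem38b and Creb3l1. P3h4, which in mice is part of a complex with lysyl hydroxylase 1, fell by 1.01 (SE 0.205, adjusted p = 0.0424). Fkbp14 (-0.57, adjusted p = 0.0519), Fkbp9 (-0.74, 0.065) and the coat protein gene Sec23a (-0.36, 0.0688) came next. Of 16 collagen chains 13 were lower and 1 higher, Col10a1 at 0.15, with a median of -0.53. Col2a1 also lay above 0, at 0.28 (adjusted p = 0.311), but missed the unadjusted threshold. Col5a3 fell by 0.59 (SE 0.106, adjusted p = 0.0322), Col12a1 was at -0.89 and Col6a2 at -0.62 (adjusted p = 0.0808 each), and Col4a1 at -0.49 (0.0851). Col1a1, the main chain of bone collagen and the only chain below 0 that missed the unadjusted threshold, was at -0.21 (adjusted p = 0.344).

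The enzymes that act on collagen outside the cell and the general folding factors of the endoplasmic reticulum were counted in the same way. Of 12 genes of procollagen processing and cross-linking 9 were lower, with a median of -0.44. Loxl2, a lysyl oxidase, fell by 1.09 (SE 0.201, adjusted p = 0.0326), and Lox, Adamts14 and Pcolce were at -1.30 (adjusted p = 0.0529), -0.33 (0.109) and -0.60 (0.126). Of 11 disulfide isomerases and chaperones of the endoplasmic reticulum 3 were lower at an unadjusted p, Txndc5 at -0.24, Pdia4 at -0.23 and Pdia6 at -0.12, with a median of -0.06, and the difference from the other lists was not tested. Of 8 genes in a list of other 2-oxoglutarate hydroxylases, vitamin C transporters and Hif1a, 1 was lower and 0 higher at an unadjusted p, with a median of 0.06. The 1 was the ascorbate transporter gene Slc23a2, which fell by 0.40 (SE 0.0752, adjusted p = 0.0353). Hif1a was at -0.17, Hif1an at 0.14 and Egln2 at 0.08 (adjusted p = 0.351, 0.395 and 0.476).

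Of 13 measured hypoxia targets 7 were lower, with a median of -0.23. The glucose transporter gene Slc2a1 fell by 0.94 (SE 0.133, adjusted p = 0.0144), and Pdk1, Hk2 and Adm were at -0.36, -0.23 and -0.28 (adjusted p = 0.0566, 0.0873 and 0.141). Of 7 measured heat shock genes 0 were lower or higher by limma at an unadjusted or adjusted p, with a median of 0, and Hspb1, which came first by p, was at -0.29 (adjusted p = 0.39). Between Li+ and Ctrl, 0 genes of the partner, chain, processing and isomerase lists passed by limma at an unadjusted or adjusted p at day 7, at day 28 or over both days. Of the other lists, the hypoxia target gene Ndrg1 (0.18) and the heat shock gene Hspe1 (0.12) were higher in Li+ at day 28 and the macrophage marker Mrc1 (0.14) over both days at an unadjusted p, with adjusted p of 0.999, 0.999 and 0.963.

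The lists were also counted over rat means without rats 23, 27 and 29. At an unadjusted p, 11 of 18 procollagen partners were then lower (median -0.41), 11 of 16 collagen chains (-0.47), 6 of 12 processing and cross-linking genes (-0.40) and 2 of 11 isomerases and chaperones (-0.01), against 4.90% of all probe sets. Of the 8 genes in the list of other hydroxylases, transporters and Hif1a 1 was lower (median -0.02), of the 13 hypoxia targets 5 (-0.19) and of the 7 heat shock genes 1 (-0.02). As for all probe sets in that limma fit, 0 of these genes passed at an adjusted p.

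**Figure D4:**
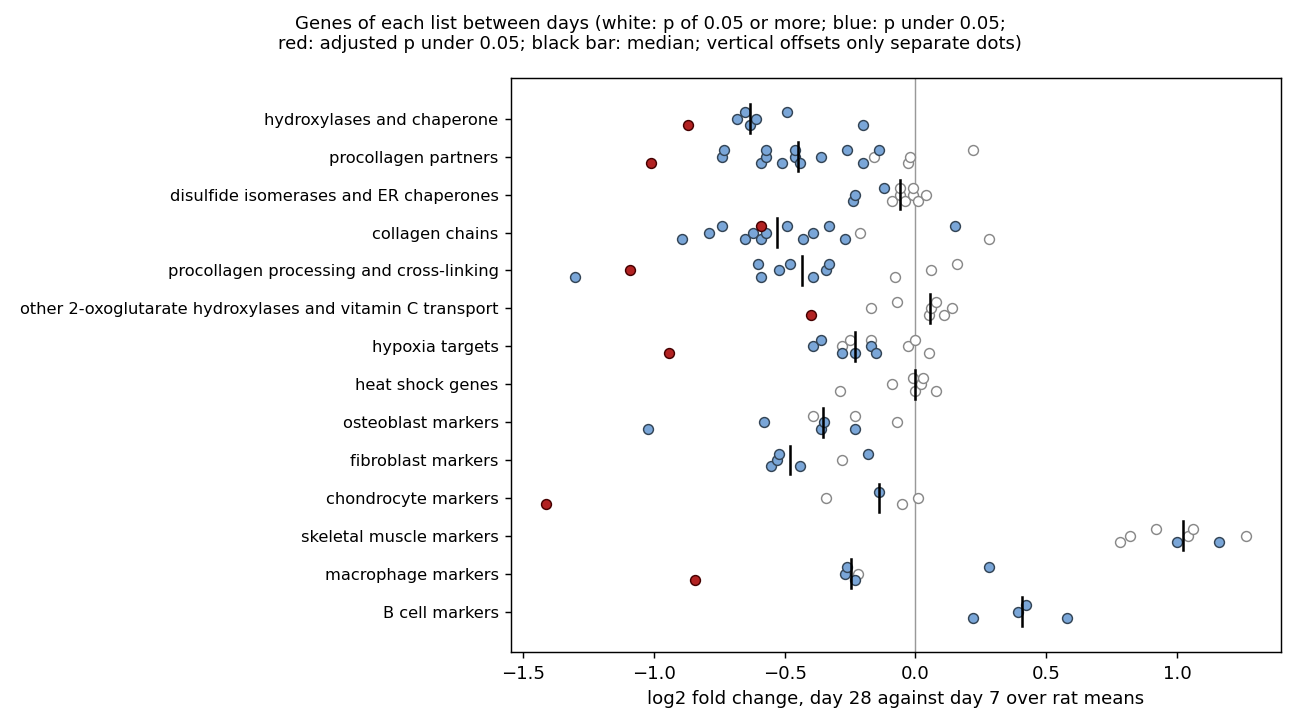
Log2 fold change between days over rat means (x axis) of the 7 genes and of each gene of 13 lists (rows), with blue dots for an unadjusted p under 0.05, red dots for an adjusted p under 0.05 and black bars for medians. The medians of procollagen partners, collagen chains and cross-linking genes lie between -0.53 and -0.44, and those of endoplasmic reticulum chaperones and heat shock genes at -0.06 and 0.

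Markers of several cell types moved between the days as well. Of 8 osteoblast markers 5 were lower at an unadjusted p over rat means (median -0.36, Phex at -1.02 with an adjusted p of 0.102), and the mean log2 signal of the list lay between 10.81 and 11.89 at day 7 and between 10.47 and 11.41 at day 28. Of 6 fibroblast markers 5 were lower (median -0.48, Lum at -0.52), with list means of 10.68 to 11.54 at day 7 and 10.22 to 11.06 at day 28. Of 5 measured chondrocyte markers 2 were lower (median -0.14). Acan, which encodes aggrecan, fell by 1.41 (SE 0.273, adjusted p = 0.0378). Sox9, Hapln1 and Col9a1 were at -0.14, -0.34 and -0.05 (adjusted p = 0.198, 0.525 and 0.764). Of 6 macrophage markers 4 were lower and 1 higher (Cd163 at 0.28), and the scavenger receptor gene Msr1 fell by 0.84 (adjusted p = 0.036). Of 4 measured B cell markers 4 were higher (median 0.41, Ms4a1 at 0.58). Skeletal muscle markers had a median of 1.02 with 2 of 8 higher, and of -0.17 with 0 of 8 higher and 1 lower without rats 23, 27 and 29. Without these rats 3 of 8 osteoblast markers were lower (median -0.35), 4 of 6 fibroblast markers (-0.43), 2 of 5 chondrocyte markers (-0.21) and 1 of 6 macrophage markers (-0.20, with 1 higher), and 4 of 4 B cell markers were higher (0.40). For none of these cell types was its part in the lower signals of the hydroxylases and the chaperone tested.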

How the data were processed

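Peri-implant bone of 12 rats was measured on 24 arrays. The authors deposited log2 signals, 1 per probe set and array, made by RMA (background correction, normalization across arrays and summary) with Expression Console 1.1.2. The labels and the Methods name different RNeasy kits and amounts of RNA. No further normalization was applied, and every array column matched a sample. Quantile normalization across days makes each signal relative to the other signals of its array. No scan date or batch was given in the sources used here, and the number of arrays limits the precision.

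The 190 control probe sets were left out and 36495 were tested in R 4.3.3 with limma 3.58.1 (lmFit, eBayes), without a filter. Of these, 18511 had 1 gene symbol, 575 had several and 17409 had none, and the probe set with the highest mean stood for a gene. Symbols were looked up by Entrez identifier in the annotation of GRCr8, where 18394 were found and 0 changed. Li+ and Ctrl were compared with the rat as a fixed block, and days on the arrays of an implant or on rat means. Adjusted p-values follow Benjamini-Hochberg across all 36495 tests, with a threshold of 0.05. The test of the Methods was the t-test named there, to which this adjustment and the use of rat means were added here. Exact permutation tests, all two-sided, either flipped signs of the paired differences or reassigned rats to days.

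The members and the 13 gene lists were chosen with earlier results of these data known, including that genes of collagen synthesis were lower at day 28. Of each list the genes with the smallest p over rat means were named, up to 4, and all members. Other genes named with values (Col1a1, Col2a1, Col10a1, Ndrg1, Hspe1 and Mrc1) were chosen after their values were seen. Similar patterns were ranked by Pearson correlation among named genes with a mean signal above the median probe set. The labels give both arrays of a rat the same number. After group means were removed, the 2 arrays of a rat correlated at a median of 0.279 over 12 rats (0.0675 to 0.569, 11 of them over 0.1), against -0.0347 over 60 pairs of different rats, so the number was taken as the animal. On simulated data for day 28 against day 7 over rat means (36495 probe sets), the fit recovered 83% of changes of 0.585 and 96% of changes of 1 on the log2 scale. The changes were planted in randomly drawn probe sets with normal noise. A share of 0.25 of its variance was common to the 2 arrays of a rat. For the 7 genes the 2 sites of a rat correlated at 0.363 to 0.716, so these percentages need not hold for them. Figures were drawn with matplotlib 3.10.9.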

Additional observations from a re-analysis of the deposited data

How the results depend on the processing

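The direction of the 7 genes between days was the same in each alternative and each fit that left out 1 rat. So was their count at an unadjusted p over rat means (7 of 7), against 4.90% to 12.8% of all probe sets lower. In Ctrl 6 of 7 passed without rat 4, 21 or 27, against 4.78%, 4.59% and 4.56% of all probe sets lower. The count at an adjusted p was less stable. Beside each count stands the share of all probe sets that passed in the same fit. Over rat means it was 1 (0.965%), and it was 7 with the rat as a random replicate block (4.86%), 2 with signals centered on each array's median (1.33%), 6 with only probe sets above the median signal (5.58%), 2 with trend and robust variances (1.59%), 0 with the test of the Methods (0.214%) and 0 without the rats high in muscle genes (0%). Leaving out 1 rat gave 0 to 4, with 0.0795% to 2.78% of probe sets. In Li+ it was 1 (0.279%), and 0 with the random replicate block (0.351%), 2 above the median signal (2.67%), 0 with the test of the Methods (0.0630%) and 0 without the array high in muscle genes (0.0274%). Leaving out 1 rat gave 0 to 6, with 0.00822% to 2.79% of probe sets. In Ctrl it was 0 (0.0959%), and 2 with the random replicate block (0.721%). Fewer probe sets were tested above the median signal, and the leave-out fits had fewer samples. The cause of the other changes was not tested. Averaging all probe sets of a gene changed no member, since each has 1, and leaving out the fixed block (no replicate block) changed no call between Li+ and Ctrl. Centering moved the split of all probe sets at an unadjusted p in Ctrl from 2011 higher and 2134 lower to 1440 higher and 2684 lower. Over rat means it moved from 3373 higher and 2871 lower to 2744 higher and 3318 lower, so that 9.09% of probe sets were lower in place of 7.87%. The alternatives without arrays high in muscle genes were chosen after seeing the data. With the test of the Methods 3 osteoblast markers were lower over rat means.

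Between Li+ and Ctrl a part of the values lay close to 0 and changed sign between fits. With centered signals P4ha2 was at 0.01 and P4hb at 0 at day 28, and the time courses of P4hb differed by 0.02. Without the rats high in muscle genes, P4ha2, P4hb and Serpinh1 were at 0.04, 0.05 and 0.06 at day 28, P4hb and Serpinh1 at 0.01 and 0.03 over both days, and P4hb, Plod2 and Serpinh1 at 0.06, 0.07 and 0.05 for the interaction of implant and day. When 1 rat was left out, the log2 fold change at day 7 ranged from -0.07 to 0.16 for P4ha1, -0.02 to 0.18 for P4ha2, -0.04 to 0.03 for P4hb and -0.11 to 0.10 for Serpinh1. At day 28 it ranged from -0.04 to 0.04 for P4ha2, -0.03 to 0.01 for P4hb, -0.02 to 0.11 for Plod2 and -0.08 to 0.04 for Serpinh1. Over both days it ranged from -0.01 to 0.08 for P4ha2, -0.08 to 0.03 for P4ha3, -0.02 to 0.01 for P4hb, -0.05 to 0.01 for Plod1 and -0.06 to 0.04 for Serpinh1. For the difference between the time courses it ranged from -0.09 to 0.13 for P4ha1, -0.18 to 0.02 for P4ha2, -0.04 to 0.03 for P4hb, -0.19 to 0.03 for Plod2 and -0.11 to 0.09 for Serpinh1. The other genes kept their sign whichever rat was left out. At day 7 they were P4ha3 (-0.32 to -0.08), Plod1 (-0.17 to -0.03) and Plod2 (0.01 to 0.24). At day 28 they were P4ha1 (0.03 to 0.14), P4ha3 (0.05 to 0.22) and Plod1 (0.03 to 0.08). Over both days they were P4ha1 (0.01 to 0.11) and Plod2 (0.03 to 0.13). For the time courses they were P4ha3 (0.19 to 0.43) and Plod1 (0.07 to 0.21). The count at an unadjusted p ranged from 0 to 1 at day 7 (P4ha3 at -0.32 without rat 15, where 1862 of 36495 probe sets passed). At day 28 it ranged from 0 to 1 (P4ha3 at 0.22 without rat 28, where 1442 probe sets passed). For the interaction it ranged from 0 to 2, the 2 without rat 15, where 1622 probe sets passed.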
